A study of Homo sapiens with 9 samples.

Results

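The miR-30 family was followed through 9 small RNA libraries in which the protein ERH had or had not been targeted by siRNA. Its members were taken by name from a table of counts per miRNA hairpin: hsa-mir-30a, hsa-mir-30b, hsa-mir-30c-1, hsa-mir-30c-2, hsa-mir-30d and hsa-mir-30e, 6 of 1485 hairpins. HEK293E cells, a line derived from human embryonic kidney, were transfected by lipofection on days 0 and 3 and harvested on day 5. They received siGFP, siControl or the ERH siRNA siERH-3, each in replicates 1 and 2, or the ERH siRNA siERH-5, in replicate 2. K562 cells, a human leukaemia line, were electroporated with siGFP or siERH-5, 1 library each, and harvested after 4 days. siGFP and siControl together form the HEK293E control arm of 4 libraries, and siERH-3 and siERH-5 the siERH arm of 3.

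All 9 libraries were made alike from 10 µg of total RNA, with 30 spike-in RNAs added, fragments of 18 to 30 nucleotides selected and adapters with 4 random nucleotides. They held 2609929 to 3320017 hairpin counts. The labels do not say that replicates came from separate cultures, so p-values measure the spread between these libraries, which may be technical. ERH mRNA is not measured by small RNA sequencing, and the knockdown was not checked here. As a check of the cell line labels, 5 of 5 miRNAs of blood cells had more counts in both K562 libraries than in every HEK293E library; hsa-mir-223, a myeloid miRNA, had 32446 and 43807 counts in K562 and 1 to 25 in HEK293E. In HEK293E, edgeR called 125 of 773 tested hairpins lower and 184 higher with siERH. Scaling to library totals in place of TMM, edgeR's scaling factor, moved the median over all hairpins by 0.202 on the log2 scale, and the lower share of the calls from 40.5% to 24.0%. Fewer cells that make a miRNA and less of it per cell cannot be told apart in bulk libraries such as these.

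As background, a miRNA gene is transcribed as a long primary RNA in which the Microprocessor, DROSHA with DGCR8, cuts out a hairpin. DICER then cuts the hairpin to a pair of mature strands, the 5p arm and the 3p arm, and one of them guides an Argonaute protein to messenger RNAs that match its seed, the bases near its 5′ end. Hairpins on 1 primary RNA can differ widely in how well they are cut, and ERH is known as a partner of the Microprocessor that helps the cutting of some poor hairpins that lie beside a better one. The miR-30 family is known from kidney and other epithelia, where it represses genes of the mesenchymal state, and it is made from 3 pairs of neighbouring hairpins. The ratio of 2 neighbours was therefore followed when ERH was targeted. The pairs lie 2837, 4268 and 26519 bases apart, and whether they share a primary RNA was not tested.

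The mature strands show what holds the family together and what divides it. They are printed because the division recurs in the spread of ratios between members, though less clearly in their levels. Sequences are those of RefSeq on GRCh38.p14, which were matched for 4 of the 6 hairpins, read 5′ to 3′ with the seed, bases 2 to 8, in capitals. The 5p arms are these:
hsa-miR-30a-5p: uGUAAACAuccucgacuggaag
hsa-miR-30e-5p: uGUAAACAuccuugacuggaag
hsa-miR-30c-5p: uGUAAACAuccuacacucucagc
The 3p arms, which form the other side of each hairpin, are these:
hsa-miR-30a-3p: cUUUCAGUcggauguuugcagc
hsa-miR-30e-3p: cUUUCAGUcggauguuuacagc
hsa-miR-30c-1-3p: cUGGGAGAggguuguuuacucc
hsa-miR-30c-2-3p: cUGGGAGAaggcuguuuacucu

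The 5p seed GUAAACA was the same in the 3 printed 5p strands, and no other hairpin matched to the RefSeq table carried it. Counted from 1 at the 5′ end, hsa-miR-30e-5p differs from hsa-miR-30a-5p by a single change, C13U. hsa-miR-30c-5p differs from hsa-miR-30a-5p by C13A, G14C, G18C, G19U and A20C and is 1 base longer. All differences thus lie outside the seed. The 3p strands fall into the same division, with the seed UUUCAGU in hsa-miR-30a-3p and hsa-miR-30e-3p and the seed UGGGAGA in both miR-30c 3p strands. The latter seed also belongs to hsa-miR-6788-5p. Among the 3p strands, hsa-miR-30e-3p differs from hsa-miR-30a-3p by G18A, and hsa-miR-30c-2-3p differs from hsa-miR-30c-1-3p by G9A, U12C and C22U. As background, miR-30d is like miR-30a and miR-30e beyond the seed, and miR-30b like miR-30c.

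The hairpins themselves are printed for the pair hsa-mir-30e and hsa-mir-30c-1, neighbours on 1 strand whose ratio is followed below, with the 5p arm in capitals:
hsa-mir-30e: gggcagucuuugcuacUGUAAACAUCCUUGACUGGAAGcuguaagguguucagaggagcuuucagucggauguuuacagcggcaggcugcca
hsa-mir-30c-1: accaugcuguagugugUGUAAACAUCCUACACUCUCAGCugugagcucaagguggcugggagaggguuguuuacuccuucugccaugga
The second copy of miR-30c has another loop and another 3p arm but an identical 5p arm:
hsa-mir-30c-2: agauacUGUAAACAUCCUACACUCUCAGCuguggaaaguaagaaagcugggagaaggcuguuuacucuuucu

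In coordinates of GENCODE 29 on GRCh38, hsa-mir-30e (gene MIR30E) lies at chr1:40754355-40754446 and hsa-mir-30c-1 (MIR30C1) at chr1:40757284-40757372, both on the plus strand in introns of NFYC, which encodes a subunit of the transcription factor NF-Y. The stretch between them is 2837 bases. On the minus strand of chromosome 6, hsa-mir-30a (MIR30A) lies at chr6:71403551-71403621 and hsa-mir-30c-2 (MIR30C2) at chr6:71376960-71377031, 26519 bases apart, in introns of the long noncoding RNA genes LINC00472 and AL136164.2. On the minus strand of chromosome 8, hsa-mir-30d (MIR30D) and hsa-mir-30b (MIR30B) lie 4268 bases apart and overlap no annotated host gene on their strand. In each pair the hairpin of the a, d and e kind comes first in the direction of transcription and the b or c hairpin second.

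The annotated hairpins are 70 to 92 nucleotides long, against a median of 83 over 772 tested hairpins. Their predicted folding energies, a measure of how stable the stem is, ran from -52.1 kcal/mol for hsa-mir-30e to -25.4 kcal/mol for hsa-mir-30c-2, against a median of -39.25 kcal/mol. The first hairpin was the more stable one in the pairs 30e with 30c-1 (-52.1 and -34.3 kcal/mol) and 30a with 30c-2 (-37.2 and -25.4 kcal/mol). For 30d with 30b the order was the other way, at -28.1 and -36.9 kcal/mol. The energies are not scaled to length, and these annotations are 70 and 88 nucleotides long. Their order is therefore not read as an order of stem stability. The GC content was between 41.67% for hsa-mir-30c-2 and 53.52% for hsa-mir-30a, with a median of 51.1% over the tested hairpins.

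The family was among the abundant miRNAs of both lines. Its 6 hairpins took 3.58% to 4.94% of the counts of the HEK293E libraries, and 2.50% and 2.67% in K562. Both hsa-mir-30c rows enter these sums. If reads of their identical 5p arm were counted in both rows, the family's share is overstated. In HEK293E, hsa-mir-30e ranked highest, between 21 and 24 among all hairpins in each library. The ranges over the 7 libraries of hsa-mir-30a (rank 36 to 44), hsa-mir-30d (35 to 48) and both hsa-mir-30c hairpins (31 to 66) overlapped, so their order is not resolved. hsa-mir-30b came last in every library, at rank 58 to 115. Levels of different hairpins also carry the ligation preferences of small RNA libraries, so their order is that of counts.

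hsa-mir-30c-1 and hsa-mir-30c-2 had nearly the same counts, with a ratio of 30c-2 to 30c-1 between 0.986 and 1.01 in the 9 libraries. Since they share their 5p strand, the table does not tell how much of it came from either locus, and both rows are in effect 1 measurement of miR-30c-5p. hsa-mir-30c-1 can therefore not serve as an independent neighbour of hsa-mir-30e, nor hsa-mir-30c-2 of hsa-mir-30a. Of the 3 neighbour ratios, 30d over 30b is the 1 that does not rest on miR-30c counts.

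The lines differed most in hsa-mir-30a. In counts per 1000000 counts of the library, its level was 7557 and 7385 in the siGFP libraries of HEK293E and 17.2 in the siGFP library of K562, which rests on 45 counts (95% Poisson interval 12.6 to 23.0, for counting error only). The HEK293E mean was thus 434-fold higher, with 1 K562 library. The level in the siERH-5 library of K562 was 17.5, from 58 counts. The other 5 members differed by at most 1.54-fold between the siGFP libraries of the lines: the HEK293E mean was 1.54-fold the K562 value for hsa-mir-30e, 1.38-fold for hsa-mir-30c-1, 1.40-fold for hsa-mir-30c-2, 1.13-fold for hsa-mir-30d and 0.914-fold for hsa-mir-30b.

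In K562, hsa-mir-30a counts were 0.228% and 0.214% of the hsa-mir-30e counts, against 54.0% to 67.9% in HEK293E. The mature 5p strands of these hairpins differ by 1 base, and whether the 45 and 58 counts include reads of hsa-mir-30e was not tested. hsa-mir-30c-2, on the same strand as hsa-mir-30a, was listed with 10650 and 15588 counts in the same K562 libraries, counts that cannot be told apart from reads of hsa-mir-30c-1.

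**Figure D1:**
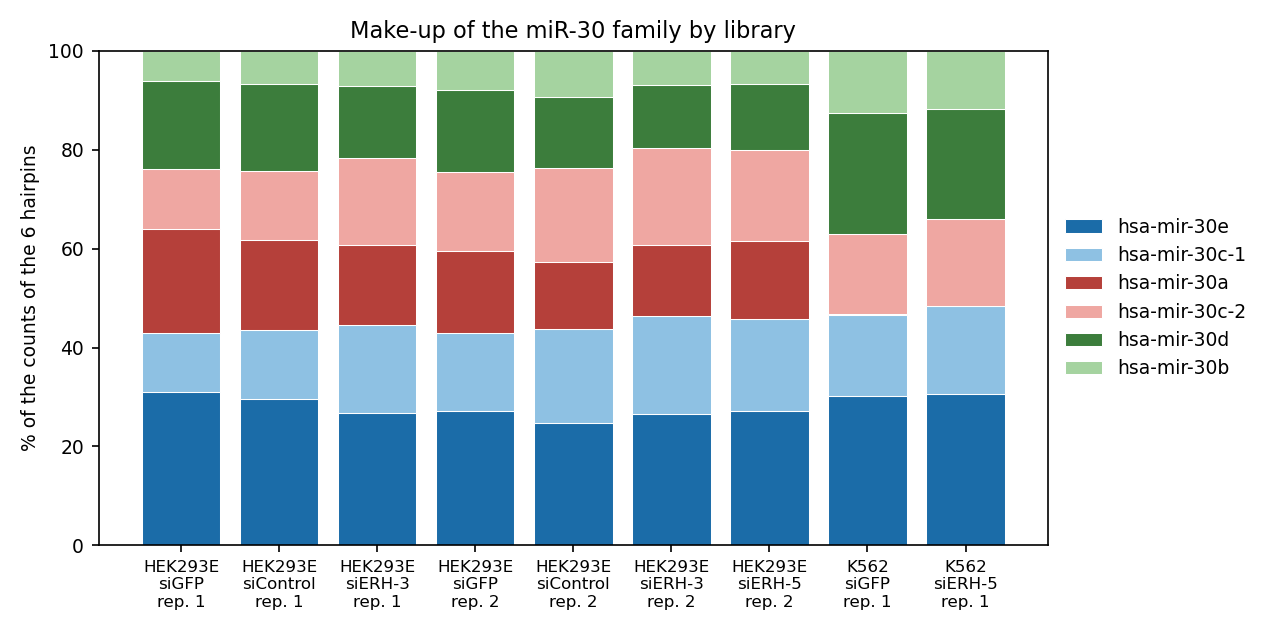
Stacked bars give the share of each hairpin in the summed counts of the 6 hairpins (y axis, %), for the 7 HEK293E and 2 K562 libraries (x axis), with neighbours in shades of 1 colour. Both hsa-mir-30c hairpins are counted in full, although they may hold the same reads. hsa-mir-30a is nearly missing in K562, and the green block of 30d with 30b takes 23.6% to 24.5% in the HEK293E controls, 19.7% to 21.6% with siERH, and 37.0% and 34.1% in K562.

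The first comparison asked whether the family's levels differ when ERH is targeted. In HEK293E none of the 6 members passed the test, while 16.2% of all tested hairpins were called lower and 23.8% higher. The estimates for the a, b, d and e members were below 0 and those for the miR-30c hairpins slightly above it. Over the members the median log2 fold change was -0.24, against -0.01 over all 773 hairpins. On library totals it was -0.04 against 0.19, a gap of -0.23 by either scaling. The gap was -0.08 among the 298 hairpins that average 100 CPM or more and -0.40 within replicate 2. Values in CPM, counts per 1000000 counts of the TMM-scaled library, follow for each library.

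hsa-mir-30d, the first hairpin of its cluster, gave the lowest estimate. It stood at 5916 and 8163 CPM in siGFP replicates 1 and 2 and at 7847 and 8214 CPM in siControl. With siERH-3 it was at 6104 and 5244 CPM, and with siERH-5 at 5519 CPM. siGFP replicate 1 lay among the siERH libraries and apart from the other 3 controls, so the arms overlapped. The means were 7535 ± 1091 (SD, n = 4) and 5622 ± 439 (SD, n = 3), and the log2 fold change was -0.42 ± 0.16 (SE), with an adjusted p of 0.0572 by edgeR's quasi-likelihood test. With the replicate number as a block it was -0.43 ± 0.14 with an adjusted p of 0.0202 by edgeR. In that blocked fit 20.6% of all hairpins were lower and 28.1% higher, and hsa-mir-30d was the 1 member called. Over the 18 alternative settings, its adjusted p lay between 0.00175 and 0.242 and passed in 8. Removal of the GC trend, with and without the block, is among these 8. Two-way scaling mattered for the size: on library totals the log2 fold change was -0.22, with an edgeR adjusted p of 0.208. Among hairpins that average 100 CPM or more it was -0.30, with an edgeR adjusted p of 0.151. Without siGFP replicate 1 the log2 fold change was -0.53 and the adjusted p 0.00915 by edgeR. Leaving out any other single library gave -0.45 to -0.37, with edgeR adjusted p of 0.0887 to 0.201, and did not pass.

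hsa-mir-30b, its neighbour, stood at 2066 and 3906 CPM in siGFP replicates 1 and 2 and at 3025 and 5379 CPM in siControl. With siERH-3 it was at 2974 and 2781 CPM, and with siERH-5 at 2849 CPM. The siERH libraries were close together and lay inside a control range that spans 1.38 log2 units. The estimate was -0.33 ± 0.27 on the log2 scale (SE; edgeR adjusted p = 0.363). Within replicate 2 alone it was -0.67, with an edgeR adjusted p of 0.00353, and 99 of 770 hairpins were lower and 182 higher in that fit. There the siERH libraries lay under the siGFP and the siControl library. The other setting of 18 in which it passed was removal of the GC trend together with the replicate block. It gave -0.57 with an edgeR adjusted p of 0.0239, and 155 hairpins of 773 were lower and 223 higher. Without the block that setting gave an edgeR adjusted p of 0.0855. GC removal moved the miR-30c rows, which share their reads, to 0.21 for hsa-mir-30c-1 and -0.22 for hsa-mir-30c-2. Passes under it are therefore weak. In replicate 1 the siERH-3 library lay 0.25 log2 units above the mean of its controls.

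hsa-mir-30a, the member of chromosome 6 with a 5p strand of its own, had 7014 and 8128 CPM in siGFP replicates 1 and 2, and 8091 and 7789 CPM in siControl. It had 6765 and 5857 CPM with siERH-3 and 6608 CPM with siERH-5. It was the 1 member whose arms did not overlap, all siERH libraries lying below all controls, as did 19.1% of tested hairpins, with another 25.5% wholly above. On library totals the arms overlapped, at 6679 to 7678 against 6181 to 7386 counts per 1000000. The log2 fold change was -0.27 ± 0.14 (SE), with an edgeR adjusted p of 0.141. DESeq2, another count model, called it at -0.34 with an adjusted p of 0.0430. That model called 153 of 773 hairpins lower and 174 higher, and of the members also hsa-mir-30d, at -0.49 with a DESeq2 adjusted p of 0.0196.

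hsa-mir-30e, the most abundant member, had 10337 and 13309 CPM in siGFP replicates 1 and 2 and 13252 and 14261 CPM in siControl. It had 11275 and 10854 CPM with siERH-3 and 11310 CPM with siERH-5. Again siGFP replicate 1 was the lowest library, and the other 3 controls lay above all siERH libraries. The estimate was -0.20 ± 0.15 on the log2 scale (SE; edgeR adjusted p = 0.324).

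hsa-mir-30c-1, its neighbour, had 3944 and 7831 CPM in siGFP replicates 1 and 2 and 6250 and 10966 CPM in siControl. It had 7457 and 8007 CPM with siERH-3 and 7767 CPM with siERH-5. The siERH libraries sat in the middle of the controls, and the estimate was 0.10 ± 0.28 on the log2 scale (SE; edgeR adjusted p = 0.801). hsa-mir-30c-2 gave 0.09 ± 0.27 (SE; edgeR adjusted p = 0.818). The sign of this small value turned with the controls used: against siControl alone it was -0.18 for hsa-mir-30c-1, and against siGFP alone 0.38.

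**Figure D2:**
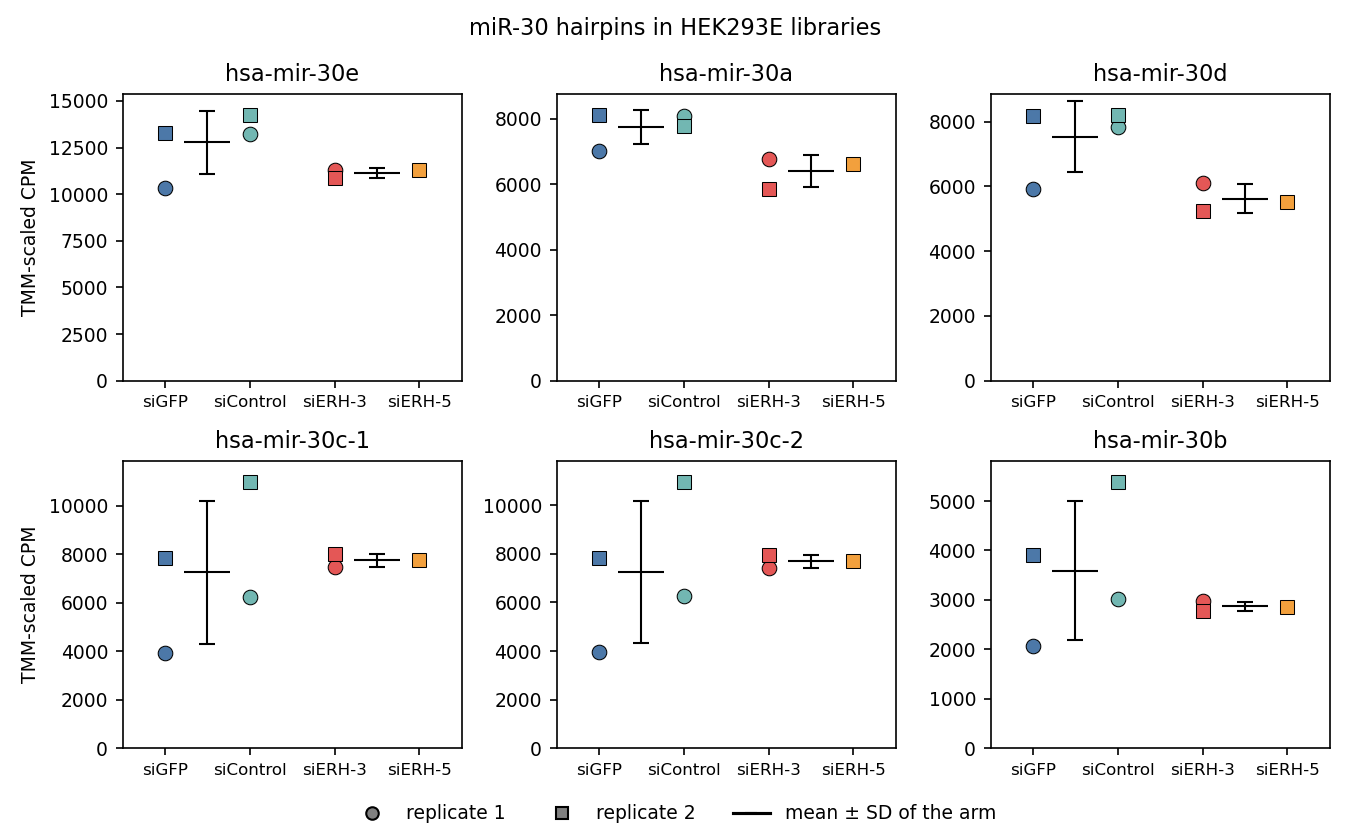
Each panel plots 1 hairpin in HEK293E, with TMM-scaled CPM on a y axis that starts at 0 and the siRNA on the x axis. Circles are replicate 1 and squares replicate 2, and black bars give the mean and SD of the control arm (4 libraries) and of the siERH arm (3). The controls of hsa-mir-30c-1, hsa-mir-30c-2 and hsa-mir-30b spread over more than the distance between arms, with siGFP replicate 1 lowest and siControl replicate 2 highest.

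Much of the spread lay between the control siRNAs and between replicates. siControl against siGFP was tested on 730 hairpins with edgeR, which called 0 lower and 0 higher (0% each), with 24 at an unadjusted p under 0.05. DESeq2 called 2 lower and 2 higher. The 6 members had estimates above 0, from 0.06 ± 0.24 for hsa-mir-30a to 0.56 ± 0.43 for hsa-mir-30c-1 (log2, SE), and none passed. With the replicate block, edgeR called 8.36% of hairpins lower and 9.86% higher, and 3 members were higher with siControl. These were hsa-mir-30b at 0.50 ± 0.11 (edgeR adjusted p = 0.000118), hsa-mir-30c-1 at 0.57 ± 0.11 (edgeR adjusted p = 7.44e-06) and its copy hsa-mir-30c-2. The blocked estimates for hsa-mir-30a, hsa-mir-30d and hsa-mir-30e were 0.07, 0.20 and 0.22 and did not pass.

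The replicates divided the members in the same way. From replicate 1 to replicate 2, hsa-mir-30b was 0.92 log2 units higher with siGFP and 0.83 higher with siControl, and hsa-mir-30c-1 0.99 and 0.81 higher. For hsa-mir-30a the same differences were 0.21 and -0.05. Those of hsa-mir-30d, at 0.464 and 0.066, and of hsa-mir-30e, at 0.365 and 0.106, lay in between. With siERH-3, replicate 2 differed from replicate 1 by -0.10 for hsa-mir-30b and 0.10 for hsa-mir-30c-1. The control libraries, which differ in siRNA and replicate, thus moved the b and c members more than the a, d and e members. For the b and c members the siERH libraries spanned less than the controls, with 3 libraries against 4.

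**Figure D3:**
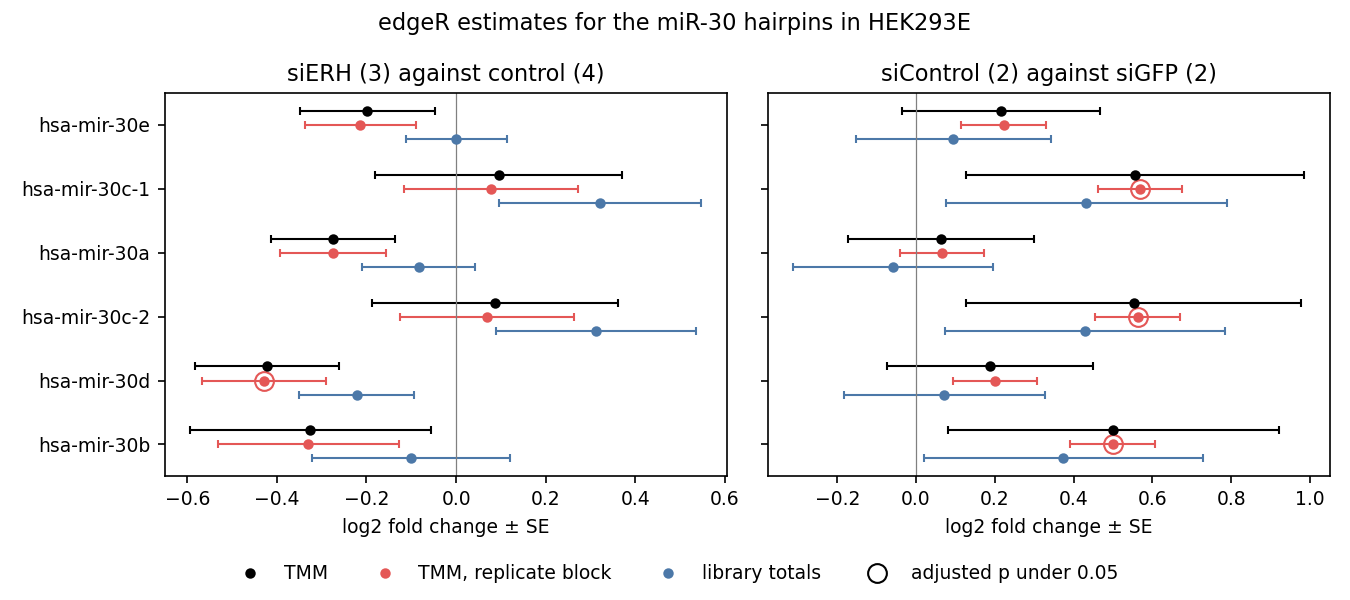
Points give the log2 fold change (x axis) of each hairpin (y axis) in HEK293E with its standard error, on the left for siERH against control and on the right for siControl against siGFP. Black is the fit scaled by TMM, red adds the replicate block and blue scales to library totals; a ring marks an adjusted p under 0.05. On the left, hsa-mir-30d in the blocked fit is ringed, and on the right hsa-mir-30b, hsa-mir-30c-1 and hsa-mir-30c-2 in the blocked fit.

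The second comparison asked whether neighbours change relative to each other, the question that the known role of ERH beside clustered hairpins raises. The ratio was taken from the raw counts of each library, so it does not depend on scaling. For hsa-mir-30e over hsa-mir-30c-1 it was 2.62 and 1.70 in siGFP replicates 1 and 2 and 2.12 and 1.30 in siControl. With siERH-3 it was 1.51 and 1.36 and with siERH-5 1.46. The siERH values fell between the lowest control and the other 3. On the log2 scale the control mean was 0.90 ± 0.43 (SD, n = 4) and the siERH mean 0.53 ± 0.08 (SD, n = 3), a difference of -0.38 (two-sided exact permutation test over libraries, p = 0.229, adjusted p = 0.434 over 129 neighbour pairs).

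For hsa-mir-30a over hsa-mir-30c-2 the ratio was 1.76 and 1.04 in siGFP replicates 1 and 2 and 1.29 and 0.711 in siControl. It was 0.910 and 0.735 with siERH-3 and 0.856 with siERH-5. The order of the libraries was the same as for 30e over 30c-1 at the top, with siGFP replicate 1 first and siControl replicate 1 second, and siControl replicate 2 was again the lowest. The log2 means were 0.19 ± 0.55 (SD, n = 4) and -0.27 ± 0.16 (SD, n = 3), and their difference of -0.46 had an exact permutation p of 0.229 (adjusted 0.434).

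For hsa-mir-30d over hsa-mir-30b the ratio was 2.86 and 2.09 in siGFP replicates 1 and 2 and 2.59 and 1.53 in siControl. It was 2.05 and 1.89 with siERH-3 and 1.94 with siERH-5. These neighbours kept the narrowest range within the siERH arm. The log2 means were 1.14 ± 0.40 (SD, n = 4) and 0.97 ± 0.06 (SD, n = 3), with a difference of -0.17 and an exact permutation p of 0.457 (adjusted 0.627).

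The smallest p that 3 against 4 libraries allow is 0.0286. Of the 129 pairs of neighbours within 50 kb in the table, 40 (31.0%) had arms that did not overlap, and the 3 miR-30 pairs were not among them. None of the 129 had an adjusted p under 0.05 (0%) by this exact permutation test, and 27 had an unadjusted p under 0.05. Pairs at the smallest p had an adjusted p of 0.137 by that test. No pair could therefore pass after adjustment, whatever the size of its difference, and the 0% is not read as a lack of change. The differences were also unequal between replicates. For 30e over 30c-1 the siERH value minus the control mean was -0.64 in replicate 1 and -0.08 in replicate 2, for 30a over 30c-2 -0.73 and -0.12, and for 30d over 30b -0.41 and 0.10. With siControl in place of siGFP the ratios were also lower, by -0.31 and -0.39 log2 units for 30e over 30c-1 in replicates 1 and 2, -0.45 and -0.55 for 30a over 30c-2, and -0.14 and -0.45 for 30d over 30b.

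**Figure D4:**
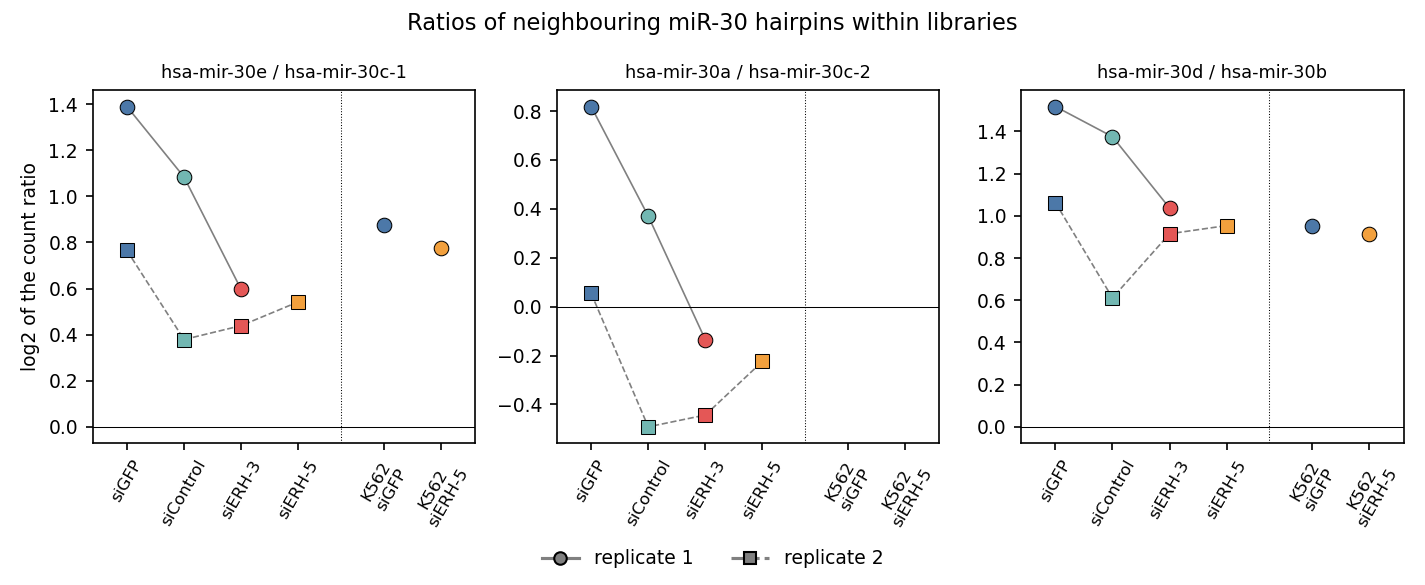
Panels give the log2 count ratio (y axis) of the first to the second hairpin of each neighbouring pair in every library, with the siRNA on the x axis; circles and solid lines are replicate 1, squares and dashed lines replicate 2. K562 is left out of the middle panel, where hsa-mir-30a had 45 and 58 counts. In all 3 panels the siGFP library of replicate 1 is highest and the siControl library of replicate 2 lowest, with the siERH libraries inside that range.

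In K562, with 1 library per siRNA and no replicate check, no member reached a 2-fold change between siGFP and siERH-5, while of 646 hairpins 6.81% were lower by 2-fold or more and 10.1% higher. hsa-mir-30d went from 6741 to 5398 CPM, a log2 ratio of -0.32, and hsa-mir-30b from 3484 to 2861 CPM, a log2 ratio of -0.28. hsa-mir-30e gave -0.17 and both hsa-mir-30c hairpins -0.08. hsa-mir-30a gave -0.25 with a counting interval of -0.81 to 0.31, too wide to give it a direction. The members' median was -0.21 and that of all hairpins 0.11. On library totals these medians were 0.06 and 0.37, so the members lay about as far below the rest (-0.32 and -0.31) by either scaling while their own sign changed. The gap was not taken among abundant hairpins only, as it was in HEK293E. The members' medians include both miR-30c rows and the low hsa-mir-30a.

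The neighbour ratios of K562 moved little. hsa-mir-30e over hsa-mir-30c-1 went from 1.83 to 1.71, a change of -0.10 log2 units with a counting interval of -0.14 to -0.05. hsa-mir-30d over hsa-mir-30b went from 1.93 to 1.89, a change of -0.04 with a counting interval of -0.09 to 0.01. hsa-mir-30a over hsa-mir-30c-2 was 0.00423 and 0.00372, a change of -0.18 with an interval of -0.75 to 0.38. These intervals cover counting error only.

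The ratios of all 15 pairs of members were then compared, a description chosen after the values had been seen and given without a test. The SD of the log2 ratio over the 7 HEK293E libraries was 0.112 to 0.135 for the 3 pairs among hsa-mir-30a, hsa-mir-30d and hsa-mir-30e, which lie at different loci. It was 0.234 and 0.240 for hsa-mir-30b with either miR-30c hairpin, again at different loci. For the 9 pairs that join a member of the first kind to one of the second it was 0.289 to 0.475, and the 3 pairs of genomic neighbours are all among these 9. Within the 4 control libraries the contrast was wider: 0.0455 to 0.138 among a, d and e, 0.0446 and 0.0498 between b and c, and 0.402 to 0.557 across. Of the neighbour ratios, 30d over 30b, which does not involve the shared miR-30c counts, had an SD of 0.301 over the 7 libraries and 0.402 over the controls. Levels over the 7 libraries divided the members less clearly. Pearson's r of hsa-mir-30b was 0.886 with hsa-mir-30e and 0.854 with hsa-mir-30c-1. For hsa-mir-30a it was 0.946 with hsa-mir-30d, 0.799 with hsa-mir-30e and 0.0514 with hsa-mir-30c-1. The SDs are given without a background over other hairpins.

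**Figure D5:**
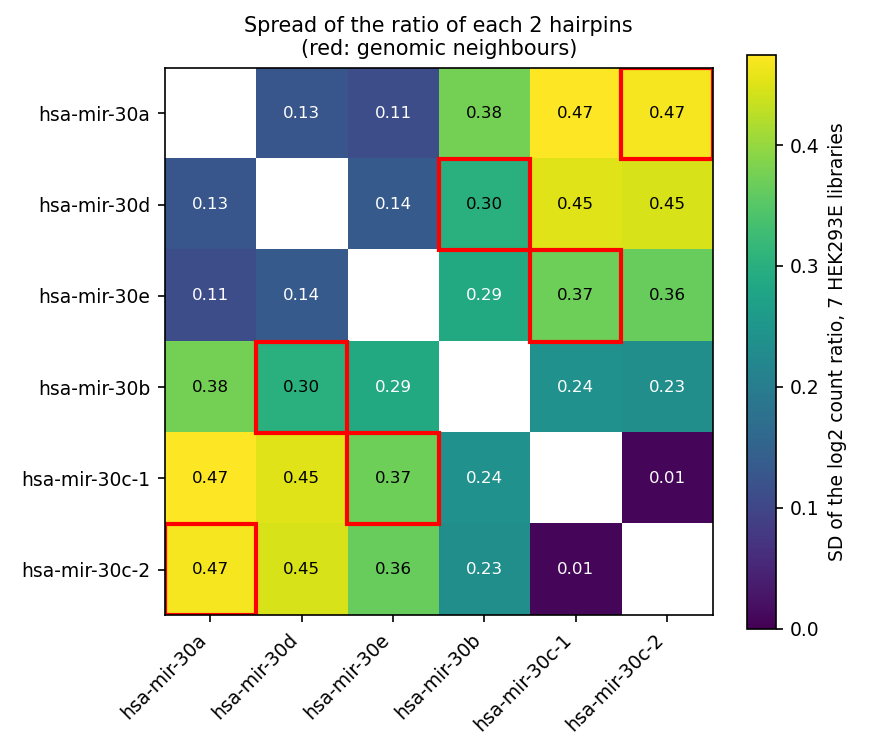
The grid gives, for each 2 hairpins (rows and columns), the SD of their log2 count ratio over the 7 HEK293E libraries, from 0 (dark) upward (light), with genomic neighbours framed in red. The block of hsa-mir-30a, hsa-mir-30d and hsa-mir-30e is dark, at 0.11 to 0.14, and the framed neighbours are at 0.30 to 0.47.

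Among pairs with like mature strands, hsa-mir-30b over miR-30c and hsa-mir-30d over hsa-mir-30e had arms that did not overlap, while hsa-mir-30d with hsa-mir-30a and hsa-mir-30a with hsa-mir-30e overlapped. hsa-mir-30b over hsa-mir-30c-1 was 0.524 and 0.499 in siGFP replicates 1 and 2 and 0.484 and 0.490 in siControl. It was 0.399 and 0.347 with siERH-3 and 0.367 with siERH-5. The controls lay close together and the siERH libraries all below them, with log2 means of -1.003 ± 0.05 (SD, n = 4) and -1.43 ± 0.10 (SD, n = 3). hsa-mir-30d over hsa-mir-30e was 0.572 and 0.613 in siGFP and 0.592 and 0.576 in siControl. With siERH-3 it was 0.541 and 0.483 and with siERH-5 0.488, again wholly below the controls. The log2 means were -0.77 ± 0.05 (SD, n = 4) and -0.99 ± 0.09 (SD, n = 3). For hsa-mir-30a over hsa-mir-30d the log2 ratio ran from -0.08 to 0.25 in the controls and from 0.15 to 0.26 with siERH, with siGFP replicate 1 among the siERH libraries.

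In K562 the same ratios were lower with siERH-5 as well. hsa-mir-30b over hsa-mir-30c-1 went from 0.765 to 0.662, a change of -0.21 log2 units with a counting interval of -0.26 to -0.15. hsa-mir-30d over hsa-mir-30e went from 0.808 to 0.730, a change of -0.15 with a counting interval of -0.19 to -0.11. Such changes were not particular to these pairs. hsa-mir-30c-1 over hsa-mir-30d, whose arms overlapped in HEK293E, changed by 0.245 in K562, with a counting interval of 0.198 to 0.291. No background over other hairpins was computed for K562 ratios. Of the 15 pairs of members, 4 had arms that did not overlap in HEK293E. These were 30b with each miR-30c copy, 30d with 30e, and the copies 30c-1 and 30c-2 with each other, whose log2 ratio differed by 0.01. Ratios that separate the arms were common in general: 34.4% of the 12561 pairs of hairpins that average 1000 CPM or more did so, a larger share than 4 of 15, so nothing particular to the family is read from these pairs.

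The share of hsa-mir-30d with hsa-mir-30b in the family was likewise computed after the values had been seen. It rests on the same counts as the ratios above and has no test and no background over other families. The family total includes both miR-30c rows, so each percentage would be higher if these rows hold the same reads. hsa-mir-30d with hsa-mir-30b held 24.0% and 24.5% of the family's counts in siGFP replicates 1 and 2, and 24.3% and 23.6% in siControl. It held 21.6% and 19.7% with siERH-3 and 20.03% with siERH-5. In K562 the share with siGFP was 37.0%, and its 95% Wilson interval ran from 36.6% to 37.4%. With siERH-5 it was 34.1%, and the interval ran from 33.7% to 34.4%. The remaining counts were not divided between the other clusters, since the miR-30c reads cannot be assigned to either locus.

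The hairpins whose levels were most like the sum of the family over the 7 HEK293E libraries, by Pearson's r of log2 CPM among 291 hairpins that average 100 CPM or more, were hsa-mir-454 (r = 0.962), hsa-mir-106b (0.947), hsa-mir-455 (0.944), hsa-mir-130b (0.941) and hsa-mir-93 (0.921). The 7 points share libraries, scaling and depth, and their number is small. edgeR called none of these 5 with siERH, where it called 16.2% of all tested hairpins lower and 23.8% higher. They were picked for their likeness over the same libraries, siERH included, so this adds nothing to the family's own result. hsa-mir-454 had a log2 fold change of -0.37 ± 0.27 (SE) and hsa-mir-93 of -0.03 ± 0.20 (SE).

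Other miRNAs known with the epithelial state were read from the same fit, as a list of 10 hairpins of which 9 were tested. With siERH, edgeR called 3 lower and 2 higher, where 16.2% and 23.8% of all tested hairpins were called; 2 of 9 is near that share. The lower ones are neighbours in 1 cluster: hsa-mir-200a at -1.78 ± 0.23 (adjusted p = 0.000265 by edgeR), hsa-mir-200b at -0.99 (edgeR adjusted p = 0.00776) and hsa-mir-429 at -1.11 (edgeR adjusted p = 0.0178). The higher ones were hsa-mir-34b at 1.75 (edgeR adjusted p = 0.0183) and hsa-mir-34c at 1.39 (edgeR adjusted p = 0.0498), targets of p53 that share a primary RNA. Control levels of the called hairpins were low, from 12.6 CPM for hsa-mir-429 to 81.2 CPM for hsa-mir-34c. Those of hsa-mir-34b and hsa-mir-34c were also widely spread, at 26.0 ± 19.2 and 81.2 ± 65.1 CPM (SD). hsa-mir-200c and hsa-mir-141, the other miR-200 cluster, had 0.41 and 0.25 and did not pass, and with the replicate block hsa-mir-203a was lower as well, at -0.64 (edgeR adjusted p = 0.0386). The list's median was -0.09, against -0.01 over all hairpins. The estimates of the miR-30 family lay between -0.42 and 0.10.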

How the data were processed

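Small RNA was measured in 9 libraries, whose titles give the cell line, siRNA and replicate. The authors deposited raw counts per miRNA hairpin; 2336 blank cells were read as 0. The submitters' processing notes name cutadapt, Bowtie2, bedtools and hg38. How reads that fit several hairpins were counted is not given in the sources used here, and 5p and 3p arms are not separated. A deposited RPM table, the spike-ins and collapsing by molecule were not used here. Intervals cover counting error only.

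Hairpins that averaged 10 counts or more were kept, scaled by TMM and tested with edgeR 4.0.16 (quasi-likelihood, Benjamini-Hochberg over all hairpins, threshold 0.05) in R 4.3.3; DESeq2 1.42.0 was an alternative. Neighbour ratios used raw counts, scipy 1.17.1 and exact permutation of libraries. K562 log2 ratios used CPM plus a pseudocount of 1. Folding used RNAfold 2.7.2. The edgeR, GC and permutation steps were tested on simulated data. Replicate numbers match the labels' experimental groups, and same-numbered libraries deviated together (r of 0.692, 0.48 and 0.519 over 773 hairpins), so blocked fits are paired.

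Members and lists were chosen with earlier results of these data known. Named hairpins are the 6 members, the 5 hairpins most like their sum, the called hairpins of the epithelial list, and hsa-mir-203a, hsa-mir-200c, hsa-mir-141 and hsa-mir-223, named after their values were seen.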

Additional observations from a re-analysis of the deposited data

Results flagged for a closer look

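hsa-mir-30d had 1 control library apart from the others in HEK293E. siGFP replicate 1 stood at 5916 CPM and the other 3 control libraries between 7847 and 8214 CPM, so that the gap was 0.84 of the whole range of the 4. In all, 10 sets of 4 control values were searched in this way, and chance picks out about 1 set in 20. The size of the gap depended on the scaling. On library totals siGFP replicate 1 was still lowest, at 6374, with the other 3 controls between 7044 and 7446. That gap was a smaller part of the range. The TMM factor was 1.078 for siGFP replicate 1 and 0.858 to 0.949 for the other 3. Without siGFP replicate 1 the log2 fold change of hsa-mir-30d with siERH was -0.53, with an adjusted p of 0.00915 by edgeR. The library was picked by its own low value, and leaving it out raises the control mean. Without any other single library the edgeR adjusted p was 0.0887 to 0.201.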

How the results depend on the processing

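With siERH, library totals gave 67 hairpins lower, a mean of at least 100 CPM left 45 lower and 38 higher of 298 tested, and leaving out 1 library gave 76 to 130 lower. For siControl against siGFP, DESeq2 gave 2 lower and 2 higher, no filter on low counts 2 and 2, the paired fit with the replicate block 61 and 72, and leaving out 1 library 0 to 1 higher. With siERH, hsa-mir-30e was at 0.00067 on library totals. hsa-mir-30c-1 and hsa-mir-30c-2 were at -0.0036 and -0.012 with no filter, at -0.21 and -0.21 within replicate 2 and at -0.18 and -0.19 against siControl, and ran from -0.11 to 0.36 and from -0.12 to 0.35 without 1 library. With the GC trend removed hsa-mir-30c-2 was at -0.22, and at -0.25 with the replicate block as well, while hsa-mir-30c-1, which shares its reads, was at 0.21 without the block; the correction follows the GC content of each hairpin. For siControl against siGFP, hsa-mir-30a was at -0.058 on library totals and at -0.018 to 0.16 without 1 library, and hsa-mir-30d at -0.0062 to 0.42. The HEK293E neighbour ratios kept their direction in the alternatives run, although 30d over 30b was at 0.10 within replicate 2; most of these alternatives, the replicate block with a smallest p of 0.0556 among them, could not pass 0.05 by exact permutation. The K562 ratios have no test, and for 30d over 30b no alternative was run. With the GC trend removed, the block moved the edgeR adjusted p of hsa-mir-30b from 0.0855 to 0.0239. The cause of these shifts was not tested, and the GC settings do not test it. Depth did not limit the members, apart from hsa-mir-30a in K562 with 45 and 58 counts.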
